A study of Canis lupus familiaris with 15 samples.

Results

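KANK4 (KN motif and ankyrin repeat domains 4, ENSCAFG00000018806) and SNTB1 (syntrophin beta 1, ENSCAFG00000000957) are 2 of the 23630 genes counted by RNA-Seq in the corpora lutea (CL) of 15 dogs. They were chosen with earlier results of these data known: both had some of the smallest p-values among the genes that separated all dogs in prepartum luteolysis, with lower values, from all dogs at mid-gestation, and KANK4 also among those lower than in luteal regression. Their difference from the luteolysis dogs is therefore a description of the choice and carries no test here. Both genes were counted in every dog, with 205 to 1330 reads on KANK4 and 316 to 1834 reads on SNTB1, and both passed the filter on low counts.

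The dogs were healthy cross-breed bitches of 2 to 8 years, and each gave 1 library from CL collected at ovariohysterectomy. There were 4 groups: mid-gestation, pregnant dogs at days 35 to 40 after ovulation (n = 5); antigestagen, pregnant dogs at days 40 to 45 given the progesterone receptor blocker aglepristone at 10 mg/kg in 2 applications 24 h apart, with the CL taken 24 h after the second (n = 5); luteolysis, pregnant dogs during the prepartum fall of progesterone (n = 3); and luteal regression, non-pregnant dogs at day 65 (n = 2). Luteolysis was recognised from plasma progesterone, sampled every 6 h from day 58, once 3 measurements in a row were below 2 to 3 ng/ml. Luteal state, day of the cycle and pregnancy differ together between these groups and cannot be told apart. Counts per dog added up to 8558743 in the shallowest library and 26284315 in the deepest, and the labels do not say which dogs were handled together. The paper names animal permits from Giessen and from Ankara, without saying which dogs came under which. Whether the place differed between groups is therefore not known here.

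Both genes code for proteins that connect complexes at the cell membrane with the cytoskeleton. KANK proteins bind talin, the protein that ties integrins to actin, and gather a cortical complex with liprins and the kinesin KIF21A around integrin adhesions, where microtubules are captured and stabilised. Syntrophins are adaptor proteins that bind dystrophin, utrophin and dystrobrevins, and through their PDZ domain they hold channels and signalling proteins at the membrane. The CL is a transient gland in which steroid-producing luteal cells lie in a dense bed of capillaries, pericytes, fibroblasts and immune cells, so that a level measured in the whole tissue is a mixture: fewer cells of a type and less RNA per cell cannot be told apart.

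KANK4 had its highest mean levels in luteal regression and at mid-gestation and its lowest in luteolysis. Levels are given as CPM, the reads of a gene relative to all reads of its library, with library totals scaled by TMM (trimmed mean of M values) so that the bulk of genes had the same level in all libraries. At mid-gestation the 5 dogs had 37.6, 37.4, 46.1, 42.5 and 47.8 CPM of KANK4. The antigestagen-treated dogs had 24.6, 27.3, 38.6, 42.3 and 32.1 CPM of KANK4. In luteolysis the values of KANK4 were 15.4, 18.1 and 14.3 CPM, and in luteal regression 46.2 and 43.9 CPM. All 3 luteolysis dogs were below each of the other 12 dogs.

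The group means of KANK4 thus stood in the order luteal regression (45.1 ± 1.62 CPM, mean ± SD, n = 2), mid-gestation (42.3 ± 4.79 CPM, n = 5), antigestagen (33.0 ± 7.45 CPM, n = 5) and luteolysis (15.9 ± 1.93 CPM, n = 3). Luteal regression and mid-gestation overlapped, as did mid-gestation and antigestagen, and neither pair of neighbours passed the test over all genes given further on. For mid-gestation against antigestagen the unadjusted p of this edgeR test was 0.0389. Counting error was between 2.74 and 6.98% of the KANK4 count, beside a coefficient of variation between dogs of 11.3% at mid-gestation, 22.6% after antigestagen, 12.1% in luteolysis and 3.59% in luteal regression. In luteal regression the spread was thus about the size of the counting error, 3.25 and 3.42% in these 2 dogs.

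SNTB1 had a different order, with mid-gestation highest and luteal regression below the antigestagen-treated dogs on average. At mid-gestation SNTB1 was measured at 87.8, 73.1, 80.9, 71.9 and 65.9 CPM. After antigestagen it was at 48.1, 52.8, 63.5, 58.8 and 79.6 CPM. The luteolysis dogs had 35.9, 27.6 and 18.3 CPM of SNTB1, and the luteal regression dogs 53.3 and 51.9 CPM. As with KANK4, the 3 luteolysis dogs were the lowest of all 15 but with a wider spread, a coefficient of variation of 32.2% against 12.1% for KANK4.

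The means of SNTB1 were 75.9 ± 8.50 CPM at mid-gestation, 60.6 ± 12.1 CPM after antigestagen, 52.6 ± 1.01 CPM in luteal regression and 27.3 ± 8.79 CPM in luteolysis (mean ± SD, n = 5, 5, 2 and 3). Mid-gestation and antigestagen overlapped in SNTB1, and so did antigestagen and luteal regression. The level of SNTB1 cannot be compared with that of KANK4 as an amount of transcript, since CPM are not per length and transcript lengths were not used here.

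**Figure D1:**
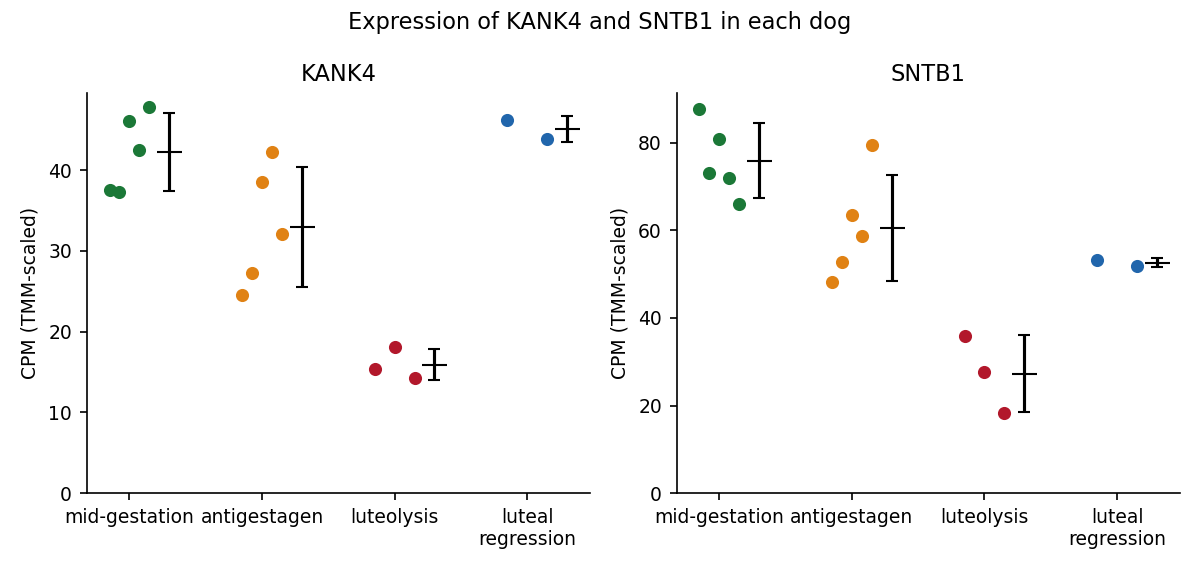
Level of KANK4 (left) and SNTB1 (right) in CPM after TMM scaling, 1 point per dog, by group, with the mean and SD in black beside the points; the vertical axes start at 0. The 3 luteolysis dogs lie lowest in both panels, at 14.3 to 18.1 CPM of KANK4 and 18.3 to 35.9 CPM of SNTB1.

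In the 3 comparisons with luteolysis, which share the same luteolysis dogs, KANK4 had a log2 ratio of 1.41 (SE 0.19) in “mid-gestation over luteolysis”. It was 1.50 (SE 0.23) in “luteal regression over luteolysis”. The value in “luteolysis over antigestagen”, in which luteolysis is the numerator, was −1.05 (SE 0.19). For SNTB1 the log2 ratios were 1.48 (SE 0.22), 0.95 (SE 0.25) and −1.15 (SE 0.21) in the same order. Both genes were thus lower in luteolysis than in each of the other groups. Differentially expressed genes (DEG) were those with p below 0.01 and an adjusted p below 0.1 by edgeR's quasi-likelihood test, and both genes met this in all 3 comparisons, where 8.16%, 5.11% and 4.75% of all genes tested did. The genes were picked on comparisons with these same luteolysis dogs, so none of the 3 calls is a test of them. No overlap between the dogs of both groups was seen for 9.76%, 38.1% and 7.74% of all genes in these comparisons.

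Among the 357 DEG higher at mid-gestation than in luteolysis, KANK4 ranked 112 and SNTB1 101 by the size of the log2 ratio, whose median over these DEG was 1.08. Of the 225 DEG higher in luteal regression than in luteolysis (median 1.28), KANK4 ranked 88 and SNTB1 163. Of the 235 DEG lower in luteolysis than after antigestagen (median −1.06), they ranked 120 and 99. The variation between dogs of a group, which is part of what a small p-value selects for, is given as a description: the biological coefficient of variation estimated by edgeR was 0.197 for KANK4 and 0.215 for SNTB1, against a median of 0.291 over 14922 genes, and it was smaller in 13.7% and 21.4% of the genes, respectively. The SD of log2 CPM of SNTB1 in luteolysis was an exception, at 0.49 against a median of 0.41 over all genes.

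The luteolysis dogs are unequal in other genes, so that the members' values were also compared without each of them. The library of luteolysis dog 1 stood apart in genes of focal adhesions, as shown further on, but had 15.4 CPM of KANK4, between the other two. Without this dog the log2 ratio of “mid-gestation over luteolysis” was 1.38 for KANK4 and 1.73 for SNTB1. Without luteolysis dog 3, the lowest in both genes, it was 1.35 and 1.28. In “luteolysis over antigestagen”, leaving out luteolysis dog 3 ended the call of KANK4 (log2 ratio −0.99) and of SNTB1 (−0.95). In “luteal regression over luteolysis”, leaving out luteal regression dog 1 or 2 ended the call of KANK4 (log2 ratios 1.46 and 1.53) and of SNTB1 (0.93 and 0.97), and without luteolysis dog 3 that of SNTB1 was lost as well (0.78). When a fit held only the 2 groups compared, neither gene was called in these last 2 comparisons.

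What the choice of the genes did not fix are the 3 comparisons without luteolysis dogs, although the mid-gestation and luteal regression dogs had taken part in the choice. “Mid-gestation over antigestagen” compares untreated and aglepristone-treated dogs within pregnancy. The days also differed, at 35 to 40 and 40 to 45, so that treatment and day cannot be told apart. KANK4 had a log2 ratio of 0.36 (SE 0.16, 95% interval 0.02 to 0.69, edgeR adjusted p = 0.703), and in 21 of the 25 pairs of dogs the mid-gestation dog was higher. SNTB1 had a log2 ratio of 0.33 (SE 0.18, 95% interval −0.05 to 0.70, edgeR adjusted p = 0.766), with the mid-gestation dog higher in 22 of 25 pairs. Neither gene passed the test. The intervals are not adjusted for the number of genes, and they reach from near 0 up to a log2 ratio of 0.69 or 0.70.

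The groups overlapped in both genes, and they did not overlap in 1.24% of all genes. By edgeR 0 of 14399 genes (0%) were DEG, with 980 genes at an unadjusted p below 0.05, against 85 DEG by DESeq2 and 18 by limma-voom. For the antigestagen-treated dogs, the values of KANK4 fell into a wide range in which 2 dogs, at 38.6 and 42.3 CPM, lay within the range of mid-gestation and 3 below it. For SNTB1 1 treated dog, at 79.6 CPM, lay within the mid-gestation range and 4 below it. The treated dog highest in SNTB1 had 32.1 CPM of KANK4, the middle value of its group.

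“Luteal regression over mid-gestation” compares the slowly regressing CL of non-pregnant dogs with the CL of pregnancy, and here the genes differed in direction. KANK4 had a log2 ratio of 0.09 (SE 0.21, 95% interval −0.35 to 0.53, edgeR adjusted p = 0.853). For SNTB1 it was −0.53 (SE 0.24, 95% interval −1.04 to −0.02, edgeR adjusted p = 0.344), and both luteal regression dogs were below all 5 mid-gestation dogs, as they were, above or below, for 30.5% of all genes tested. In this comparison too, 0 of 14685 genes (0%) were DEG by edgeR, with 2073 genes at an unadjusted p below 0.05, against 332 DEG by DESeq2 and 2741 by limma-voom. SNTB1 was called by limma-voom only (adjusted p = 0.0289).

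In “luteal regression over antigestagen” KANK4 had a log2 ratio of 0.45 (SE 0.20, 95% interval 0.01 to 0.88, edgeR adjusted p = 0.280), with both luteal regression dogs above all 5 treated dogs, a separation seen in either direction for 29.7% of all genes. SNTB1 had a log2 ratio of −0.20 (SE 0.24, 95% interval −0.71 to 0.30, edgeR adjusted p = 0.666), and the luteal regression dogs lay within the range of the treated dogs. DEG by edgeR numbered 0 of 14578 genes (0%), with 2496 genes at an unadjusted p below 0.05, against 924 by DESeq2 and 2408 by limma-voom. Of both genes, KANK4 alone was called by limma-voom (adjusted p = 0.0599).

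**Figure D2:**
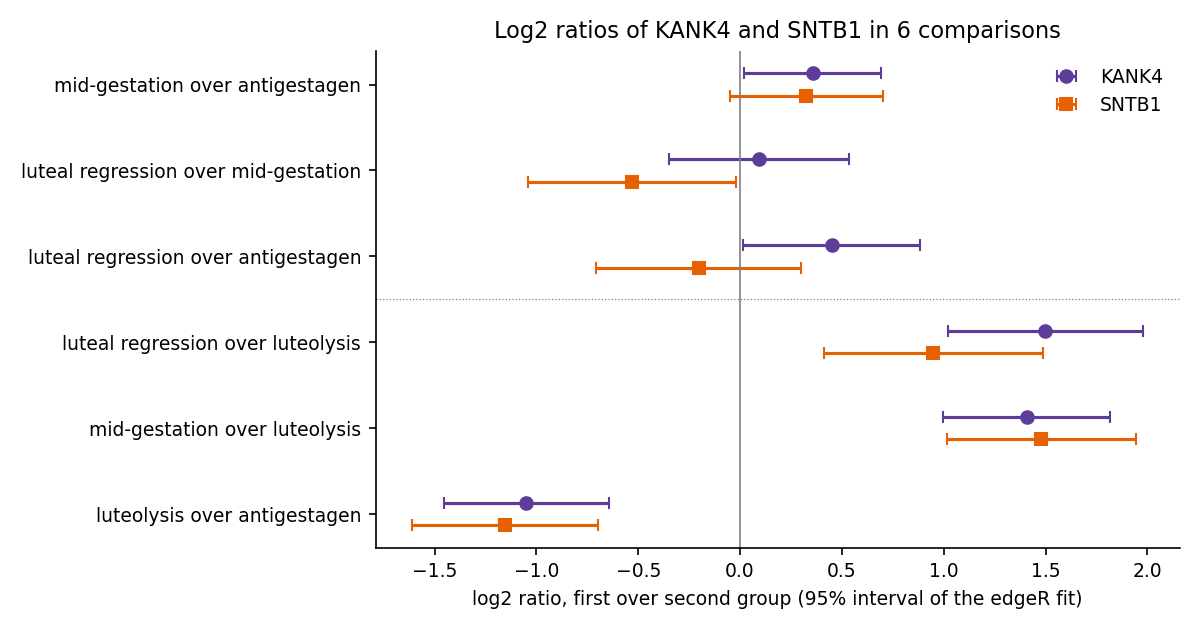
Log2 ratio between the compared groups, named in that order (horizontal axis), for KANK4 (circles) and SNTB1 (squares) in 6 comparisons. Bars give the 95% interval of the edgeR fit over all 15 dogs. The dotted line parts the comparisons without luteolysis dogs (above) from those with the luteolysis dogs, which took part in the choice of the genes (below). Above the line the ratios run from −0.53 to 0.45, below it their sizes run from 0.95 to 1.50.

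Since both genes are counted in the same library, the ratio of their counts does not depend on how libraries are scaled. The KANK4 count was 0.428 to 0.725 times the SNTB1 count at mid-gestation, 0.404 to 0.719 times after antigestagen, 0.429 to 0.782 times in luteolysis, and 0.867 and 0.847 times in luteal regression. The 2 luteal regression dogs thus had the highest ratios of all 15 dogs. In the other 3 groups the ranges overlapped almost entirely.

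On the log2 scale the ratio was −0.85 ± 0.28 at mid-gestation, −0.89 ± 0.31 after antigestagen, −0.73 ± 0.45 in luteolysis and −0.22 ± 0.02 in luteal regression (mean ± SD, n = 5, 5, 3 and 2). Luteal regression exceeded mid-gestation by 0.62 and antigestagen by 0.66 (two-sided exact permutation test, p = 0.0476 for each, the smallest p that 2 against 5 dogs allow, 0.0714 after Benjamini-Hochberg adjustment over 3 comparisons). Mid-gestation exceeded antigestagen by 0.04 (exact permutation test, two-sided, p = 0.841, adjusted p = 0.841; the smallest possible p was 0.00794). None of the 3 comparisons was below 0.05 after adjustment, and the difference from luteolysis was not tested. KANK4, and not SNTB1, was picked also for its difference between luteal regression and luteolysis, so the luteal regression values of this ratio took part in the choice and the test is not independent of it.

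Within groups, the genes showed no detectable relation. After subtraction of each group's mean, log2 CPM of KANK4 and SNTB1 had a Pearson's r of 0.27 (p = 0.409) and a Spearman's rho of 0.27 (p = 0.401) over the 15 dogs (100000 permutations within groups, two-sided, the 1 relation computed). Without the 2 dogs farthest from the median in KANK4, the treated dogs 1 and 4, r was 0.17 (permutation p = 0.633) and rho 0.18 (permutation p = 0.627). The luteolysis dog lowest in SNTB1 was also the lowest in KANK4, but the dog highest in SNTB1 was in the middle for KANK4. At mid-gestation the dog lowest in SNTB1, at 65.9 CPM, was the highest in KANK4.

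**Figure D3:**
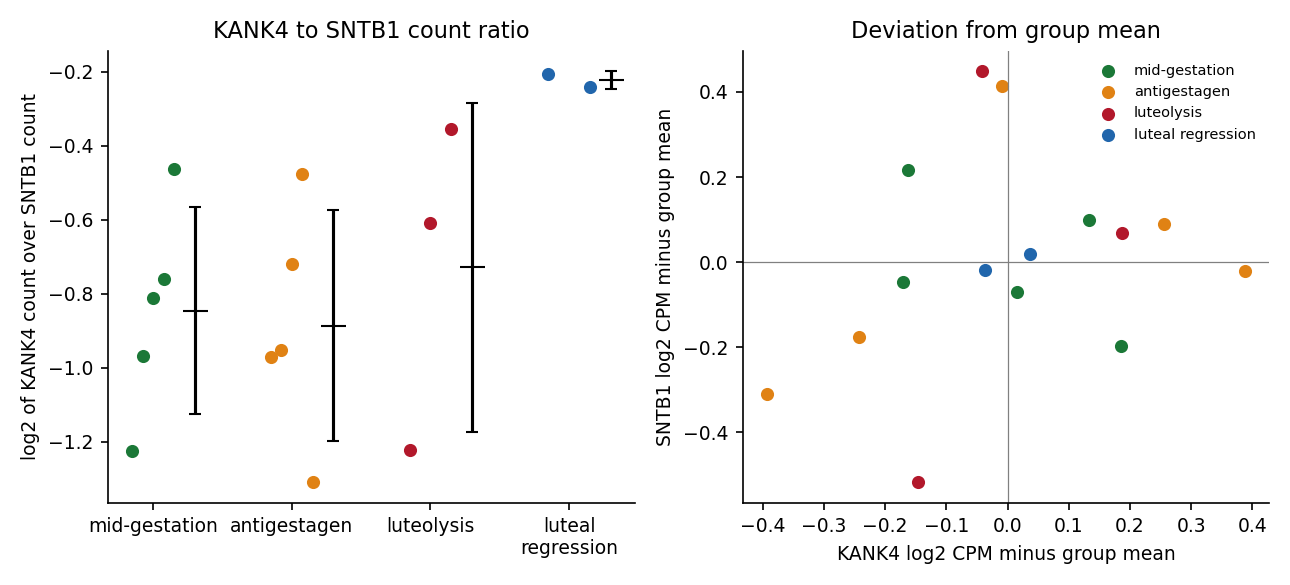
Left, log2 of the KANK4 count over the SNTB1 count in each dog by group, with mean and SD in black; right, log2 CPM of KANK4 (horizontal) and SNTB1 (vertical) in each dog after subtraction of its group's mean. Left, the 2 luteal regression dogs are above all others at −0.21 and −0.24; right, the 15 points form no line (r = 0.27).

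Over all 15 dogs, group differences included, the genes whose log2 CPM was most like that of KANK4 were ranked by Pearson's r, as a description without a p-value, since dogs of a group share their state and the members were chosen for a group difference. The 5 named genes of highest r were ZSCAN26 (a zinc finger protein, r = 0.91), RANGAP1 (the GTPase-activating protein of the nuclear transport GTPase Ran, 0.89), CES2 (a carboxylesterase, 0.88), KDM4B (a histone lysine demethylase, 0.87) and DTX2 (a ubiquitin ligase of the Deltex family, 0.87). For SNTB1 they were SAMD1 (a chromatin-binding protein, r = 0.94), LGALS3BP (a secreted galectin-binding glycoprotein, 0.93), LRP5 (a Wnt co-receptor, 0.93), DPH7 (an enzyme of diphthamide synthesis, 0.93) and again DTX2 (0.92). SNTB1 itself had an r of 0.83 with KANK4 and was in place 15 of 14921 genes for KANK4, whereas KANK4 was in place 91 for SNTB1. Only 2966 of these genes have a name in the sources used here, and these were named for differing between groups in the same dogs.

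The levels of these neighbours show what the likeness consists of. ZSCAN26 was at 5.92 ± 1.15 CPM at mid-gestation, 4.76 ± 1.21 CPM after antigestagen, 2.81 ± 0.0687 CPM in luteolysis and 6.06 ± 0.148 CPM in luteal regression (mean ± SD), the same order of groups as in KANK4. LRP5 was at 142 ± 21.8, 153 ± 31.6, 56.1 ± 24.7 and 117 ± 15.2 CPM in the same groups, so that, as in SNTB1, luteal regression lay between luteolysis and both other groups. DTX2, the gene near to both, was at 29.3 ± 2.96, 26.7 ± 4.45, 17.3 ± 1.96 and 25.9 ± 0.174 CPM. With group means subtracted, the r of the named neighbours with KANK4 ran from 0.39 (KDM4B) to 0.62 (RANGAP1), with ZSCAN26 at 0.58. With SNTB1 it ran from 0.63 (DTX2) to 0.86 (LRP5). These genes were picked for their high r in the same dogs, so these values are no test of a relation within groups.

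Names could be matched to identifiers only through the study's own lists of DEG, so that few of the proteins that work with KANK4 and SNTB1 could be looked up, and those that could had been listed for a difference between groups in these same dogs. Of 15 genes of the KANK cortical complex 4 had an identifier, KANK4 itself among them. Of 18 genes of the dystrophin-associated complex 3 had one, SNTB1 among them, and of 31 focal adhesion genes 12. Counts over these lists are therefore given as values only. No gene of the 3 lists was called by edgeR in the comparisons without luteolysis (0 of 4, 0 of 3 and 0 of 12 genes in each). At an unadjusted p below 0.05 there were 1, 1 and 1 for “mid-gestation over antigestagen” (6.81% of all genes), 1, 2 and 0 for “luteal regression over mid-gestation” (14.1%) and 2, 2 and 1 for “luteal regression over antigestagen” (17.1%). The 1 gene of the KANK list for “mid-gestation over antigestagen” was KANK4 itself, as was 1 of its 2 for “luteal regression over antigestagen”. SNTB1 itself was 1 of the 2 genes of the dystrophin-associated list for “luteal regression over mid-gestation”. There the counts hold a chosen gene and not only its partners. DESeq2 called TLN2 and SGCA in both comparisons of luteal regression, and limma-voom called the same 2 genes there with VASP.

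Of the KANK4 paralogs KANK2 could be looked up. It had 38.8, 56.8 and 38.5 CPM in the luteolysis dogs. At mid-gestation it ranged from 50.9 to 85.2 CPM, after antigestagen from 54.8 to 76.4 CPM, and the luteal regression dogs had 73.4 and 67.5 CPM. KANK2 was higher at mid-gestation than in luteolysis, with a log2 ratio of 0.64 (SE 0.19, edgeR adjusted p = 0.0671), but the groups overlapped, and KANK2 was not called without luteolysis dog 1 or 3 or without mid-gestation dog 1, 3 or 4. Whether the ratios of KANK2 and KANK4 differ was not tested.

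TLN2, one of the talins, was at 31.5 ± 2.52 CPM at mid-gestation, 25.4 ± 1.97 CPM after antigestagen and 27.3 ± 7.44 CPM in luteolysis (mean ± SD). The luteal regression dogs had 127 and 41.9 CPM, so that its log2 ratio of 1.63 over luteolysis (SE 0.33, edgeR adjusted p = 0.0451) was not called without luteal regression dog 1, the higher of them, or without luteolysis dog 3. This dog did not stand out in KANK4, at 46.2 against 43.9 CPM. KIF21A, the kinesin that KANK proteins bind, was named after its values were seen, since it is the remaining gene of the list, and had the opposite sign, from 20.3 ± 6.59 CPM at mid-gestation to 38.7 ± 12.3 CPM in luteolysis, and was not called (log2 ratio −0.93, SE 0.31, edgeR adjusted p = 0.104).

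Of the dystrophin-associated complex, SGCA and SGCB, membrane-spanning sarcoglycans, could be looked up. SGCB was at 177 ± 13.6 CPM at mid-gestation, 138 ± 26.8 CPM after antigestagen, 129 ± 7.76 CPM in luteolysis and 186 ± 6.32 CPM in luteal regression, and was not called in any of the 6 comparisons (it was named after its values were seen, as the remaining gene of the list). SGCA was lower in luteolysis than after antigestagen (log2 ratio −1.68, SE 0.42, edgeR adjusted p = 0.0538), a call lost without luteolysis dog 2 or 3 or antigestagen dog 3. Its 62.6 and 66.7 CPM in luteal regression were below all mid-gestation values, which began at 225 CPM, and all antigestagen values, which began at 206 CPM, separations seen in either direction for 30.5% and 29.7% of all genes, and SGCA passed neither test (edgeR adjusted p = 0.319 and 0.140). SNTB1 was in these dogs likewise below all mid-gestation values, but within the range of the treated dogs.

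All 12 focal adhesion genes were known by name because the study had listed them as differing in these dogs. Of them 5 were called lower and 1 higher at mid-gestation than in luteolysis, where 5.73% and 2.43% of all genes were. Their median log2 ratio was −0.78 against −0.02 over all genes. Without luteolysis dog 1 the numbers were 9 and 1, without dog 2 they were 2 and 0, and without dog 3 they were 1 and 0. The number of DEG over all genes changed as well, from 112 to 2434 with 1 dog left out, against 1197. These changes can therefore not be read as particular to the list. The smallest p-values belonged to the tyrosine kinase SRC (log2 ratio −2.00, SE 0.33, edgeR adjusted p = 0.00890), the integrin subunit ITGA2 (−2.97, SE 0.64, adjusted p = 0.0201) and the actin-binding VCL (−2.49, SE 0.54, adjusted p = 0.0207). The gene called in the direction of KANK4 was the integrin subunit ITGB5 (0.70, SE 0.21, edgeR adjusted p = 0.0681). Leaving out any 1 dog of the 2 groups kept the call of SRC, whereas that of ITGA2 was lost without luteolysis dog 2 or 3, that of VCL without luteolysis dog 3, and that of ITGB5 without luteolysis dog 2 or 3 or mid-gestation dog 1, 3 or 4.

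“Luteal regression over luteolysis” had 5 of the 12 called lower and 1 higher in luteal regression (3.58% and 1.52% of all genes), led by SRC, VASP, which promotes the growth of actin filaments, and the integrin-linked kinase ILK (log2 ratios −1.89, −1.44 and −1.19). In “luteolysis over antigestagen” 4 were called higher and 1 lower in luteolysis (3.12% and 1.62% of all genes). SRC and ITGA2 were higher (1.53 and 2.76), and TNS3, a tensin that links integrins to actin, was lower (−0.99). Without luteolysis dog 1 the numbers rose to 9 lower and 1 higher in luteal regression and to 9 higher and 2 lower in luteolysis, and without luteolysis dog 3 they were 0 and 0 in both comparisons. With the 2 compared groups alone in the fit they were also 0 and 0. Those fits called only 0 and 3 genes among all genes, in the order of the comparisons, so these counts say nothing particular to the list. Over all genes, the DEG in “luteolysis over antigestagen” ran from 6 to 2169 with 1 dog left out, against 687. The changes in the list are thus not set apart from changes over all genes.

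Luteolysis dog 1 did not share the higher levels: SRC was at 74.1 CPM in dog 1 against 273 and 347 CPM in dogs 2 and 3. Summed over the 12 genes, dog 1 had 1415 CPM, the other luteolysis dogs 4270 and 4114 CPM, and the mid-gestation dogs 1559 to 2101 CPM. KANK4 was as low in dog 1 as in the others. SNTB1 was highest of the luteolysis dogs in dog 1, at 35.9 CPM, and still below all dogs of the other groups.

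**Figure D4:**
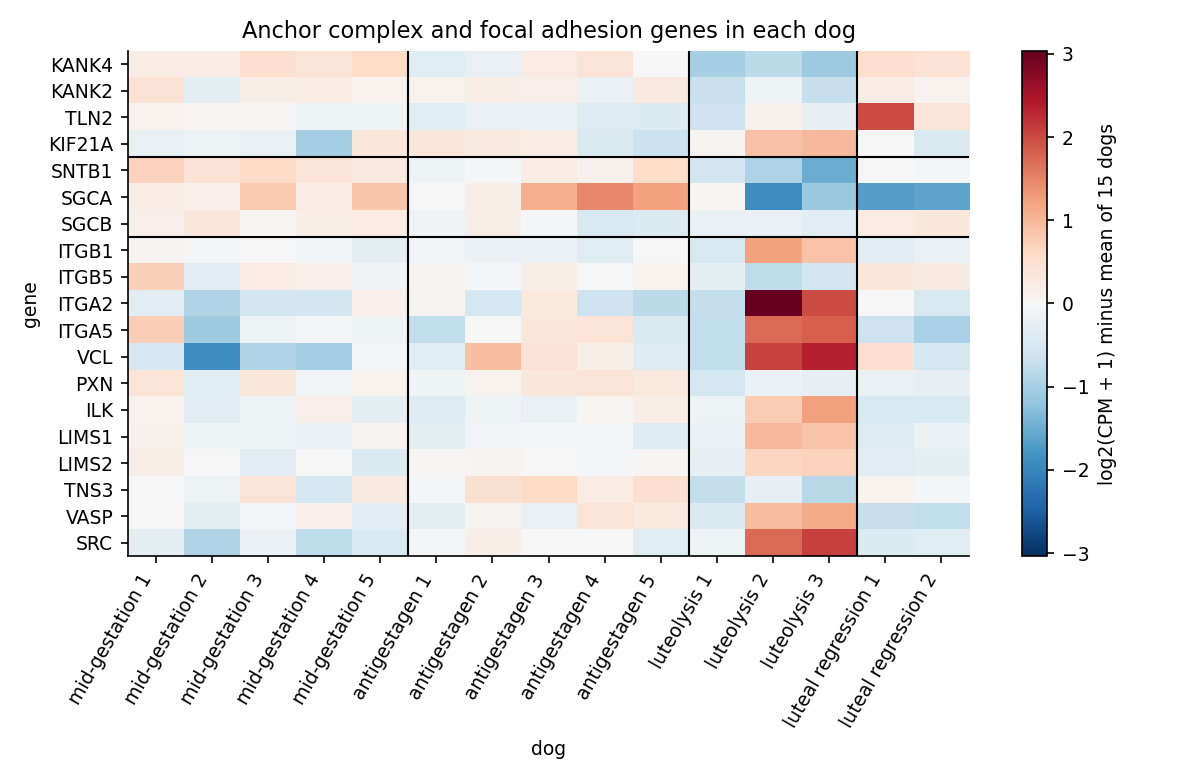
Log2(CPM + 1) of each gene minus its mean over the 15 dogs (colour, red above and blue below the mean) for the 19 genes of the 3 lists with an identifier (rows, parted by black lines: KANK cortical complex, dystrophin-associated complex, focal adhesion) in each dog (columns, by group). KANK4 and SNTB1 are below their mean in all 3 luteolysis dogs, whereas most focal adhesion genes are above it in dogs 2 and 3 and not in dog 1.

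Markers of the cell types in a CL were looked up in the same way, and their part in the values of KANK4 and SNTB1 was not tested. Of 10 luteal cell markers 2 had an identifier, the prolactin receptor PRLR and the relaxin-family hormone INSL3; their sum was 893 to 2292 CPM at mid-gestation, 408 to 3345 CPM after antigestagen, 149 to 305 CPM in luteolysis and 544 to 557 CPM in luteal regression. Of 8 fibroblast markers 5 had one, and their sum was 3749 to 15291 CPM, 3463 to 9379 CPM, 1946 to 4690 CPM and 5493 to 7183 CPM in the same order of groups. Both sums had their lowest median in luteolysis. INSL3 was higher at mid-gestation than in luteolysis (log2 ratio 3.55), as were the collagens COL1A1 (2.09) and COL3A1 (1.44), and each was a DEG by edgeR. INSL3 outweighed PRLR in the luteal sum, with means of 1455 and 104 CPM at mid-gestation. Collagens likewise outweighed the other markers in the fibroblast sum. COL1A1, COL1A2 and COL3A1 had means of 2099, 4049 and 2147 CPM at mid-gestation, against 171 CPM for FBLN1 and 107 CPM for PDGFRA. PRLR had means of 84.3 CPM in luteolysis, 84.7 CPM in luteal regression and 153 CPM after antigestagen, and was called in no comparison. The fibroblast marker PDGFRA, named after its values were seen, had means of 73.3 CPM in luteolysis and 74.5 CPM after antigestagen. Its means were higher at mid-gestation, at 107 CPM, and in luteal regression, at 190 CPM (log2 ratio over luteolysis 1.37, SE 0.44, edgeR adjusted p = 0.118). It was called in no comparison either.

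The other markers had another order. The 5 of 12 leukocyte markers with an identifier summed to 34.9 to 62.9 CPM at mid-gestation, 40.7 to 88.8 CPM after antigestagen, 37.3 to 86.1 CPM in luteolysis and 20.7 to 21.9 CPM in luteal regression. For 3 of 12 markers of pericytes and smooth muscle the sums were 173 to 999 CPM, 320 to 501 CPM, 312 to 2630 CPM and 438 to 495 CPM. The 6 of 12 endothelial markers reached 338 to 893 CPM, 594 to 1237 CPM, 503 to 1040 CPM and 364 to 377 CPM. In luteolysis dog 1 the sums were 312 CPM for pericytes and smooth muscle, 503 CPM for endothelium and 37.3 CPM for leukocytes, each the lowest of the luteolysis dogs. Of the pericyte and smooth muscle markers, MYLK and TAGLN were lowest in dog 1, but MCAM, named after its values were seen, was not. MCAM was at 171 CPM in dog 1 against 162 and 231 CPM in dogs 2 and 3, and at most 129 CPM after antigestagen. The luteal cell sum of dog 1, at 305 CPM, was the highest of the luteolysis dogs. This dog had 15.4 CPM of KANK4, the middle value of its group, and 35.9 CPM of SNTB1, the highest. PECAM1, an endothelial adhesion protein, was lower at mid-gestation and in luteal regression than in luteolysis (log2 ratios −1.24 and −1.86), as were the angiopoietin receptor TEK (−1.34) and the leukocyte integrin subunit ITGAM (−2.03) in luteal regression. Other markers of these lists had the opposite sign without passing the test, such as ROBO4 (1.19) and ENG (0.93) at mid-gestation and CD3E (0.80) in luteal regression, all 3 named after their values were seen. MYLK and TAGLN, of the contractile apparatus, were higher in luteolysis than after antigestagen (log2 ratios 2.34 and 2.32, DEG by edgeR), but luteolysis dog 1, at 80.5 and 60.3 CPM, was below every treated dog, and both calls were lost without luteolysis dog 2 or 3. The calls of PECAM1 and ITGAM were lost without luteolysis dog 2 or 3 as well, those of TEK and INSL3 without dog 3, and those of COL1A1 and COL3A1 without dog 1 or 3. Several of these calls were also lost without single dogs of the other groups. No marker with an identifier was at 0 in any dog.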

How the data were processed

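Poly(A) RNA of 15 CL was sequenced as single-end reads from libraries that do not keep strand. Per the submitters' processing notes, the authors used CASAVA 1.8 and bcl2fastq 1.8.4, aligned with STAR 2.5.1b to CanFam3.1 and counted with featureCounts, and deposited raw counts per gene; all 3148 values of at least 10000 carry 4 significant digits. Reads of genes that overlap cannot be told apart: in RefSeq annotation of another assembly (UU_Cfam_GSD_1.0) 1 long non-coding RNA gene overlaps SNTB1 and none overlaps KANK4, which bears on the SNTB1 counts and on the ratio of both genes. Groups followed the condition label, although the description of mid-gestation dog 1 carries another group number. The study's other luteal regression dog was not analysed here.

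Counts were fitted in edgeR 4.0.16 (R 4.3.3; TMM scaling, quasi-likelihood, 1 mean per group, all 15 dogs) for 14922 genes, leaving out of each test those whose mean count was under 10 in both groups, with Benjamini-Hochberg adjustment. Log2 CPM used a prior count of 2. DESeq2 1.42.0, limma 3.58.1 (voom), other scalings and filters, fits of 2 groups alone and leaving out each dog were alternatives. The code was tested on simulated counts. The edgeR p-values set a difference of groups against the variation between dogs, estimated with information from all genes. Those of the permutation tests come from rearranging the dogs, within groups for the correlation. The genes, lists and tests were chosen with earlier results of these data known. Named were both genes, paralogs with an identifier, the 3 called genes of smallest p per list and comparison, and the 5 named genes of highest r. Names came from the study's gene lists (2970 identifiers), whose fold changes and p-values were not used. KANK1, KANK3, SNTB2, SNTG1 and SNTG2 had no named identifier.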

Additional observations from a re-analysis of the deposited data

How the results depend on the processing

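Across 8 other settings (library scaling, test, filter, samples in the fit) and fits leaving out 1 dog, the log2 ratios of KANK4 and SNTB1 kept their sign in all 6 comparisons. With limma-voom, KANK4 passed the threshold in “luteal regression over antigestagen” (log2 ratio 0.43, adjusted p = 0.0599) and SNTB1 in “luteal regression over mid-gestation” (−0.53, adjusted p = 0.0289), and SNTB1 in “mid-gestation over luteolysis” was at 1.80. Over these settings the adjusted p of KANK4 in “luteal regression over antigestagen” ran from 0.0599 to 0.363 and that of SNTB1 in “luteal regression over mid-gestation” from 0.0289 to 0.421. The cause was not tested. The difference in log2 count ratio between mid-gestation and antigestagen ran from −0.07 to 0.14 with 1 dog left out, turning to −0.06 without mid-gestation dog 5 and −0.066 without antigestagen dog 5, and those of luteal regression from 0.53 to 0.72 over mid-gestation and from 0.56 to 0.77 over antigestagen. The within-group r ran from 0.08 to 0.38 with 1 dog left out. List genes called in the comparisons without luteolysis numbered 0, against 1 with DESeq2 size factors, 1 with upper-quartile scaling, 13 with DESeq2, 25 with limma-voom, 7 with the 2 groups alone and 0 to 2 with 1 dog left out. These list genes were counted over all lists, cell type markers included, and over the comparisons together. Among all genes, limma-voom called 2741 of 14685 in “luteal regression over mid-gestation” and 2408 of 14578 in “luteal regression over antigestagen”. The counts of list genes can therefore not be read as particular to the lists. DEG over all genes numbered 754 between luteal regression and luteolysis, 1197 between mid-gestation and luteolysis and 687 between luteolysis and antigestagen, against 3646, 3220 and 2833 with limma-voom and 0, 422 and 3 with the 2 groups alone; DESeq2 gave 1546 and 1477 in the first and last. With 1 dog left out they ran from 0 to 1593, 112 to 2434 and 6 to 2169. For “luteal regression over mid-gestation” the 2 groups alone gave 770 DEG against 0, and for “luteal regression over antigestagen” 1, with 3 for DESeq2 size factors, 2 for upper-quartile scaling, 1 for a mean count of at least 50 and up to 91 without a dog. Groups of 2 and 3 dogs limit the comparisons with luteal regression and luteolysis. No paired analysis was possible because the dogs differ between groups and their labels carry no replicate numbers.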
